A study of Mus musculus with 8 samples.

Results

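The regions described here are 293 ATAC-seq peaks at the ends of protein-coding genes that were less accessible in paused than in control mouse embryonic stem cells. They were chosen by their values. A peak belongs when it lies on chromosomes 1 to 19, its centre lies no more than 1 kb from an end of a protein-coding gene in GRCm38, its highest value in the 4 paused samples is below its lowest value in the 4 control samples, the mean of the paused values is at most 0.8 times that of the controls, and the mean of all 8 values is at least 10. Of 134407 peaks in the deposited table, 15662 lay at such gene ends with a mean of at least 10, and 293 of these met the rule; their nearest genes were 291 different ones. They are called lost peaks below as a short name only, since all but 1 of them held reads in every sample. The difference between the groups is what chose them, so their values are a description and carry no test.

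ATAC-seq uses the Tn5 transposase to cut accessible DNA and tag it for sequencing. Wild-type E14 cells, an established mouse embryonic stem cell line, were grown on gelatin in serum and LIF. The 4 control samples had no further treatment named in the labels, and the 4 paused samples were exposed to the mTOR inhibitor INK128 at 200 nM during 24 h. Each library was made from 50000 live cells, and nothing in the labels says that replicates were separate cultures, so a p-value here measures only the spread between these libraries.

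mTOR is a kinase that matches growth to nutrients: while active it promotes ribosome production, translation and anabolic metabolism, and its inhibition in embryonic stem cells or blastocysts gives a reversible state of low growth and low transcription that resembles diapause. Accessible DNA at the start of a gene marks the promoter, where transcription factors and RNA polymerase II displace nucleosomes. Accessibility at a 3′ end is usually weaker and can reflect the termination of transcription, an enhancer close to the gene or the promoter of a neighbouring transcript.

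Each value is the reads in a peak over a factor common to its sample. Between 4434037 and 21161767 reads fell in peaks per sample, with a median of 18 to 91 reads per peak; control replicate 1 was the deepest and control replicate 3 the shallowest. Over the 127402 peaks with a mean of at least 10, limma-trend called 3702 lower (2.91%) and 13958 higher (11.0%) at a Benjamini-Hochberg adjusted p under 0.05, and the median log2 change was 0.101. The split depended on the scaling: edgeR with TMM scaling called 7058 lower and 9084 higher with a median of -0.01, and scaling to equal total reads gave 6827 and 5743 with a median of -0.05. The start peaks of the pluripotency genes Nanog (113.7 ± 14.3 in control, 134.2 ± 8.58 in paused samples; SD, n = 4) and Sox2 (229.9 ± 18.3 and 255.6 ± 10.9) were open in both groups. These genes are examples. Of 12 start peaks of pluripotency genes, 2 had a negative log2 change, against 1216 of 9295 at all gene starts. Markers of other cell types are not given here.

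The sequences of lost peaks are known here where they overlap the promoter table of RefSeq (GRCm38.p6), which holds 250 bases before and 50 bases after a start site. This was so for 26 of the 293. Of the letters searched on both strands, the AP-1 site TGANTCA is shown because it is short, its matches lie inside the peaks, and its share in lost peaks was above that in all gene-end windows. Its letters differ from those of the CRE site TGACGTCA by 1 base, and the CRE site had 0 matches in lost windows, 3.89% in all and 0.743% in weak ones. It was found in 4 of the 26 windows (15.4%), against 4.6% of the 7000 windows of all tested gene-end peaks and 10.1% of the 404 windows of those with a mean under 50. The stretch of each of the 4 peaks that lies before the start site is printed 5′ to 3′ on the strand of the gene, with the AP-1 letters in capitals.
Arhgef10l, chr4:140665906-140666047, minus strand: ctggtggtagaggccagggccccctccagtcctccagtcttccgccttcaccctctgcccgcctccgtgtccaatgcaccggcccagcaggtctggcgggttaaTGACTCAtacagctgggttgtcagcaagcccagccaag
Trpv3, chr11:73267288-73267488, plus strand: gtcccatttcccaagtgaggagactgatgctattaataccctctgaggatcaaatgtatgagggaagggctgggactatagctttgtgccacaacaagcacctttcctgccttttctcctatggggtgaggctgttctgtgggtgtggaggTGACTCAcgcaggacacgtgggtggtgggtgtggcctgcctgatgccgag
Sprr1a, chr3:92485942-92486131, minus strand: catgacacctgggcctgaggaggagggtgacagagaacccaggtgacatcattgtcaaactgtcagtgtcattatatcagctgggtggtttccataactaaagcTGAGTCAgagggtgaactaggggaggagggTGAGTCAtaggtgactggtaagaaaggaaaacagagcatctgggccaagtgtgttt
Dhrs9, chr2:69380400-69380461, plus strand: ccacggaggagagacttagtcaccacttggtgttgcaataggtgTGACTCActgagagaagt
Each of these stretches holds 1 match, except that of Sprr1a, which holds 2. The deposited values of the 4 peaks are given with their genes below.

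The strongest lost peak, at the start of Ccnb1ip1, is shown because it was the only 1 of the 26 windows that was rich in CpG (GC of at least 50% and at least 0.6 of the CpG expected from its base composition). CpG dinucleotides are in capitals.
Ccnb1ip1, chr14:50795729-50795896, minus strand: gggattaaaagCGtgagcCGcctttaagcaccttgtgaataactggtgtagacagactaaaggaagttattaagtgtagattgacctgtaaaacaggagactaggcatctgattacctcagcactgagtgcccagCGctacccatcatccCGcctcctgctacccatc
CpG-rich windows made up 72% of the 7000 gene-end windows and 13.1% of the 404 weak ones, against 3.85% of those of lost peaks. The lost window of Rbbp5 held more CpG than that of Ccnb1ip1 (16 against 13, at 1.13 and 0.65 of the number expected). It was not counted as rich because its GC content of 44% was under 50%. The lost windows had a median GC content of 53.7% and a CpG ratio of 0.26, where all gene-end windows had 61.7% and 0.77, and the weak windows 54.7% and 0.29. In base composition the lost windows lay nearer to those of weak gene-end peaks than to those of all gene-end peaks. Strength was not matched here or in the shares of sites. The 26 include strong peaks, such as those of Ccnb1ip1, Sgk1 and Nacad with means of 187, 117 and 106.

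Other sites are given as examples from the 22 searched. The GC box GGGCGG was in 30.8% of lost windows, 68.6% of all and 34.4% of weak windows; the CCAAT box CCAAT was in 26.9%, 41.8% and 32.9%. The TEAD site CATTCC was in 23.1%, against 11.3% of all and 17.6% of weak windows. The ETS site CCGGAAGT had 0 matches in 26 lost windows, against 8.99% of all and 1.98% of weak windows. The shares of the E-box CACGTG were close, at 11.5% of lost, 11.1% of all and 8.66% of weak windows. The CTCF site had 0 matches in lost windows, against 3.8% of all and 4.21% of weak windows. With 26 windows, 1 match moves a share by 3.85%, and a match says only that these letters are present.

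In level, the lost peaks were mostly weak. Their mean over the 8 samples had a median of 21.6, with a range from 10.0 to 187, where all tested gene-end peaks had a median of 136. The median lost peak had a value of 25.9, 27.5, 28.8 and 27.9 in control replicates 1 to 4, and of 16.1, 15.8, 17.1 and 16.4 in paused replicates 1 to 4. In reads this was a median of 75 in control replicate 1, 17 to 23 in the other controls and 10 to 14 in the paused samples. The precision of a single peak in a single paused sample is therefore low.

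**Figure D1:**
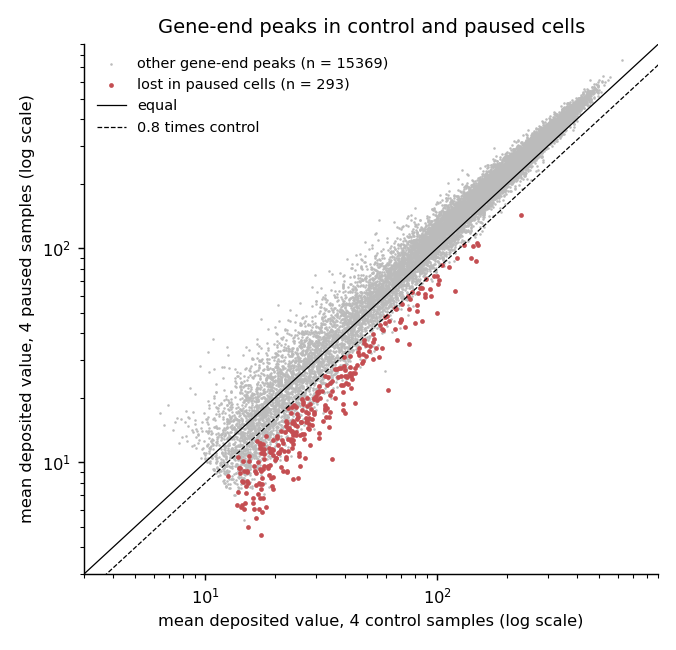
Mean deposited value of the 4 control samples (x, log scale) against that of the 4 paused samples (y, log scale) for every tested gene-end peak, with lost peaks in colour, the line of equal values and the line of 0.8 times control. Most of the 293 lost peaks lie at low values, with a median of 21.6, while the bulk of the other peaks lies higher and close to or above the line of equal values.

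The ratio of mean paused to mean control value had a median of 0.60 and ran from 0.264 to 0.799. It was at most 0.5 for 60 peaks, between 0.5 and 0.6 for 86, between 0.6 and 0.7 for 92 and above 0.7 for 55. On the log2(value + 1) scale, which understates the change of weak peaks, the median difference was -0.70, against 0.17 for all tested gene-end peaks. The margin between the groups was narrow for most: the lowest control value was a median of 1.12 times the highest paused value, under 1.1 times for 130 peaks and at least 1.5 times for 16.

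Groups without overlap in this direction were found for 314 of the 15662 tested gene-end peaks (2.00%), of which the ratio threshold left out 21. In the other direction they were found for 2307 (14.7%). limma-trend called 153 of the 293 lost peaks lower, where the background over all tested gene-end peaks was 200 (1.28%). Because the rule used this contrast, nothing is read from that count. Over all tested peaks 4.36% had no overlap in this direction, and calls of lower peaks made up 2.91% in limma-trend, 5.54% in edgeR with TMM scaling, 3.63% in edgeR with the deposited factors, 1.49% in DESeq2, 4.15% in limma-trend after TMM rescaling and 3.50% after the loess correction. The authors' deposited table lists 99 of the 293 with an FDR under 0.05 and a negative fold, where it lists 0.760% of the tested gene-end peaks so.

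**Figure D2:**
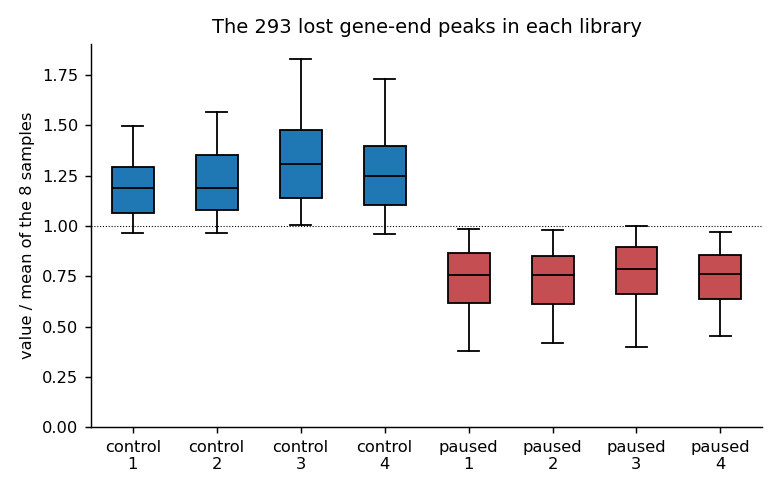
Value of each of the 293 lost peaks divided by its own mean over the 8 samples, for each library; boxes span the quartiles, lines the medians, and whiskers the 5th to 95th percentile. The rule separates the 4 control from the 4 paused libraries, and within each group the libraries lie close together, with median values of 25.9 to 28.8 in control and 15.8 to 17.1 in paused samples.

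At the ratio threshold, the peaks just inside were those of Ms4a4d (0.797) and Il17b (0.799), and just outside those of Gtsf1 (0.8004) and Ndst1 (0.810). The Gtsf1 peak had control values of 33.53, 38.22, 38.95 and 29.39 and paused values of 27.69, 28.39, 27.93 and 28.12, so that its groups did not overlap but its ratio was too high. At the strength threshold, the peaks of Prrt1 and Pdap1 had means just over 10, and those of Higd1b (9.53) and Serpina10 (9.41) were just under it.

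The choice of peaks whose groups do not overlap favours a small spread within groups. The variance between replicates was a median of 0.595 times the counting variance in control and 0.513 times in paused samples, against 0.940 and 0.925 times in all tested gene-end peaks with a mean under 50. The SDs given with lost peaks are therefore too small as an error for a new sample.

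The rule was also applied with 1 sample left out, and the left-out sample was then read at the peaks the other 7 had chosen. These choices held 357 to 469 peaks. The left-out sample lay beyond every sample of the other group at 62.7% to 80.4% of them, against 9.30% to 14.7% over all tested gene-end peaks, and on the same side of the other group's mean at 84.5% to 96.9%, against 21.9% to 35.1%. The median ratio was 0.610 to 0.628 in the samples that chose the peaks and 0.671 to 0.748 in the sample left out. Over all tested gene-end peaks the same ratio was 1.071 to 1.185. The samples of the other group had helped to choose the peaks, which by itself raises these shares above those of all gene-end peaks, so they are a description and no independent check.

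**Figure D3:**
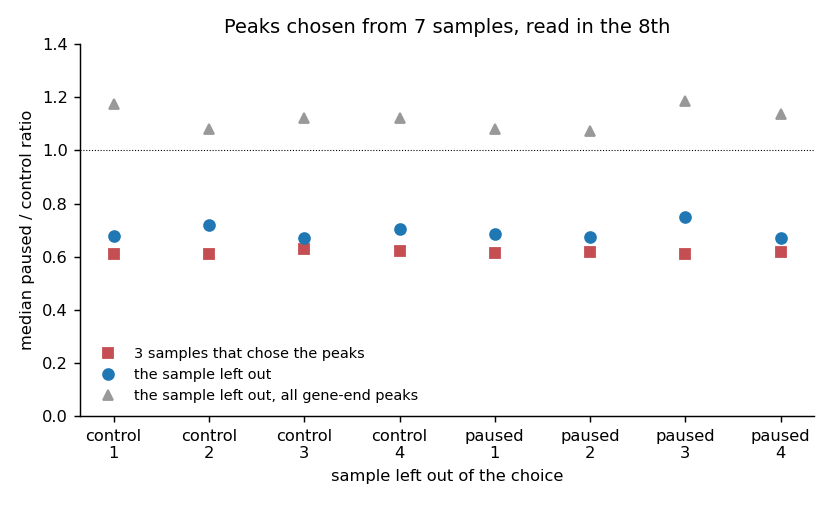
Median ratio of paused to control value (y) for peaks chosen from 7 samples, for each sample left out (x): in the samples of its group that chose the peaks (squares), in the sample left out (circles) and in that sample over all tested gene-end peaks (triangles). The circles lie at 0.671 to 0.748, above the squares at 0.610 to 0.628 and below the triangles at 1.071 to 1.185.

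Loss became rarer with strength. The rule was met by 129 of 1611 gene-end peaks with a mean of 10 to 20 (8.01%), by 116 of 2327 from 20 to 50 (4.98%), by 40 of 2333 from 50 to 100 (1.71%) and by 8 of 9391 at 100 or more (0.0852%). The mirror of the rule, higher in paused samples by the same thresholds, gave 1338 peaks, or 2.36%, 8.08%, 11.4% and 9.02% of these bands. Lower values in paused samples thus outnumbered higher ones only in the weakest band. The median log2 change of all gene-end peaks moved the same way, from -0.19 in the weakest to 0.20 in the strongest band, and the part of this shift in the result was not tested.

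In position, the lost peaks stood mostly at the 3′ ends of genes. The side was known for 228 of them, with 84 at the start (36.8%) and 144 at the 3′ end (63.2%), where 24.9% of all tested gene-end peaks with a known side were at a 3′ end. Peak strength moves with this share. Among gene-end peaks with a mean under 50, 67.2% were at a 3′ end, and among lost peaks of that strength 66.7%, so the pooled shares were close there. By band, the share of lost peaks was 68.0% against 74.5% of all from 10 to 20, and 65.2% against 62.2% from 20 to 50. Above a mean of 50 the shares lay further apart. From 50 to 100, 51.6% of lost peaks were at a 3′ end, against 33.0% of all such peaks. At 100 or more it was 25.0% against 5.58%, where only 8 lost peaks were counted.

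The centres lay a median of 515 bp from the gene end, against 168 bp for all tested gene-end peaks and 487 bp for those with a mean under 50. Only 29 lost peaks (9.90%) were within 250 bp of a start site, against 45.7% of all and 11.1% of the weak ones. Inside the span of the gene lay 149 (50.9%), close to the 53.5% of all; whether these were exonic or intronic was not analysed here. A long non-coding RNA gene was within 100 bp of 21 (7.17%), against 10.1% of all and 6.55% of the weak ones, and tRNA, miRNA, snoRNA and snRNA genes were within 100 bp of 0.

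**Figure D4:**
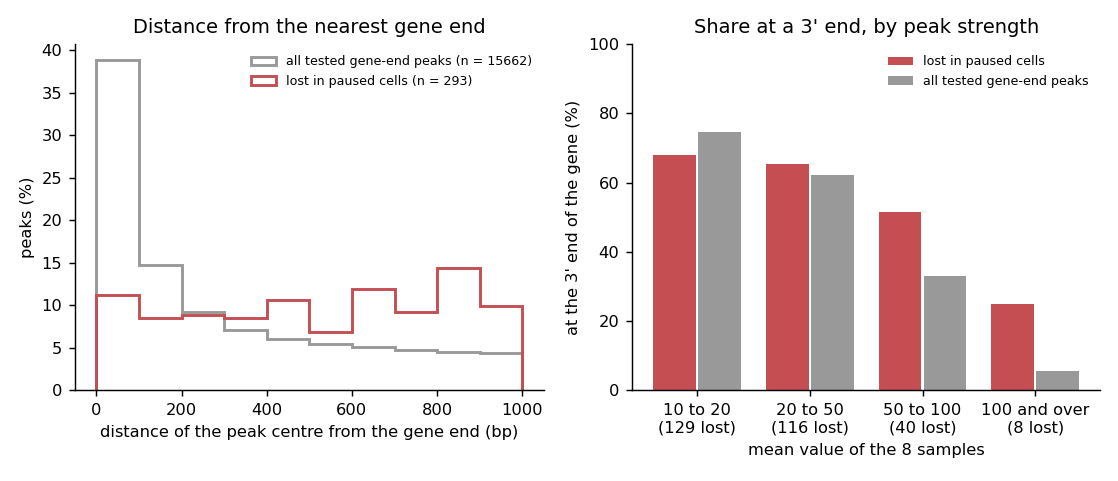
Left, share of peaks (y) by distance of the peak centre from the nearest gene end (x, bp) for lost and for all tested gene-end peaks; right, share of peaks with a known side that are at a 3′ end (y), by mean value of the 8 samples (x). Lost peaks lie farther out (median 515 bp against 168 bp). Their share at a 3′ end is below that of all peaks in the weakest band (68.0% against 74.5%). It is close to it from 20 to 50 and above it in both stronger bands.

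The lost peaks were spread over all 19 chromosomes. Chromosome 19 held 22 of them, which was 4.13% of its gene-end peaks, against 1.87% over all chromosomes and 0.836% on chromosome 13. The share of all reads in peaks that fell on chromosome 19 was 3.03% ± 0.0200 in control samples, from 3.01% to 3.05%, and 2.95% ± 0.0527 in paused samples, from 2.88% to 3.00% (SD, n = 4). These ranges did not overlap, and the part of this difference in the 22 peaks was not tested. Ranges without overlap in the other direction were found on chromosome 10 (5.10% to 5.14% in control, 5.17% to 5.2% in paused samples), where 2.4% of gene-end peaks were lost, and on chromosome 17 (4.68% to 4.74% and 4.75% to 4.78%), where 1.56% were. Among the 22 were peaks at Scd2, Psat1, Pgam1, Mrpl43 and Gstp1.

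Most peaks in the neighbourhood of a lost peak were not called lower. Of 791 tested peaks within 10 kb that were not lost peaks themselves, limma-trend called 42 lower (5.31%) and 44 higher (5.56%), where 3.01% and 9.04% of the peaks within 10 kb of any tested gene-end peak were called so. Genes with a lost peak and another tested gene-end peak numbered 162, with 174 such peaks. Of these, 1 was called lower (0.575%) and 16 higher (9.20%), with a median log2 change of 0.15, close to the 0.17 of all tested gene-end peaks. These other peaks were much stronger, with a median value of 135. Peaks that met the rule themselves, such as the second ones of Ccdc188 and Phlpp2, are not among the 174, so the count of lower calls is in part set by the choice.

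At Pds5a, which encodes a regulator of the cohesin ring, the 2 ends of the gene differed. Its 3′ peak had control values of 23.85, 17.92, 32.17 and 22.04 and paused values of 11.54, 6.31, 6.21 and 9.37. Its start peak had a mean of 187.6 ± 48.5 in control and 245.8 ± 28.6 in paused samples and was called higher. In the mean of the paused samples the 3′ peak was thus lower and the start peak higher. The groups of the start peak overlapped, with the highest control at 257.98 and the lowest paused value at 227.13.

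Among single genes, the lowest ratios belonged to weak peaks. The peak 679 bp from the start of Pex11g, which encodes a peroxisomal membrane protein, had the lowest ratio of all, 0.264. Its control values were 13.48, 19.11, 22.01 and 14.69, and its paused values 5.77, 1.58, 1.55 and 9.37; the lowest of these stand for 1 read each. The groups were apart, as the rule requires, but paused replicates 2 and 3 were much lower than replicates 1 and 4.

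Hoxb1 encodes a homeodomain protein that sets the identity of a hindbrain segment. The lost peak, at chr11:96369008-96369208, lay 854 bp beyond its 3′ end, outside the gene. It had control values of 35.95, 25.08, 35.56 and 44.08 and paused values of 8.07, 11.04, 18.62 and 3.51, a mean of 35.2 ± 7.79 against 10.3 ± 6.35 (SD, n = 4). The highest paused value was well below the lowest control value. The peak near its start had 65.5 ± 8.34 and 80.9 ± 14.7, with overlapping groups not called different.

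Zbtb42, a gene for a zinc finger protein with a BTB domain, had the highest ratio of lowest control to highest paused value of all 293. The peak at chr12:112683474-112683674, 827 bp past the 3′ end, had control values of 59.81, 56.13, 74.50 and 54.37 and paused values of 23.07, 15.77, 24.83 and 23.43. The lowest control was more than 2 times the highest paused value, the only lost peak of which this was so. The ratio was 0.356. The peak at the start had 83.4 ± 15.7 and 98.7 ± 25.3, with overlapping groups not called different.

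Trem2 encodes a receptor of microglia and other myeloid cells. Its peak, 650 bp from the start and inside the gene, had control values of 24.54, 29.86, 25.40 and 20.57 and paused values of 10.38, 7.89, 6.21 and 9.37. All 4 paused libraries were at similar low values, which was not so for Pex11g.

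The other 7 of the 12 lowest ratios ran from 0.326 to 0.377. They belonged to Pdap1, Ly6g5c, Scd2, Zfp647, Mpi, Ank3 and Chac1. Scd2 encodes a desaturase that makes monounsaturated fatty acids, with 18.3 ± 4.65 in control and 6.15 ± 1.92 in paused samples. Mpi, the isomerase that links mannose to glycolysis, had 16.2 ± 4.36 and 6.03 ± 3.11. Ank3, which encodes the membrane adaptor ankyrin G, had 25.5 ± 3.71 and 9.63 ± 2.68, with its lowest control at 22.47 and its highest paused sample at 12.69.

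**Figure D5:**
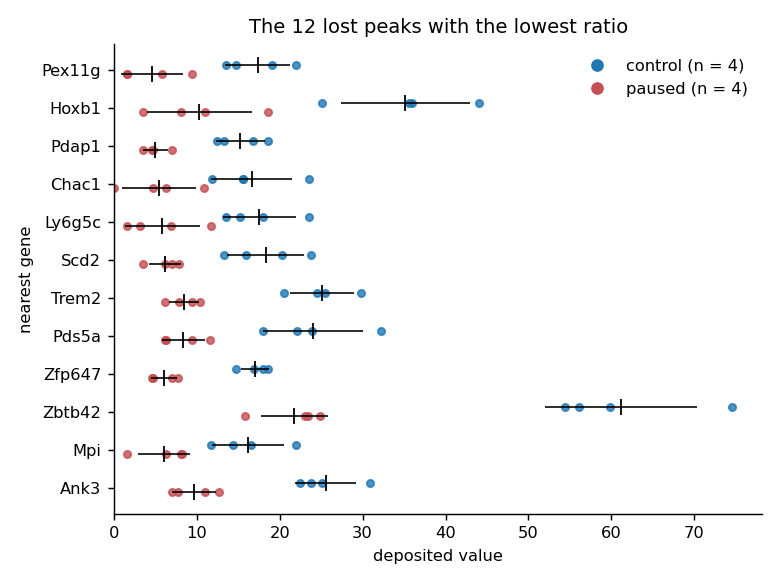
Deposited value (x) in each of the 4 control and 4 paused samples for the 12 lost peaks with the lowest ratio, by nearest gene (y); ticks are group means and bars 1 SD to each side. The rule sets the groups apart for each gene. For Zbtb42 the lowest control is 54.37 and the highest paused value 24.83, and the other 11 have no value above 44.08.

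The strongest lost peaks gave the most reads and the smallest relative error. The peak of Ccnb1ip1, which encodes a ubiquitin ligase of meiotic crossover, is the one printed above; it lies at chr14:50795696-50795896, its centre 68 bp upstream of the start. It had control values of 209.15, 230.51, 228.59 and 255.69 and paused values of 118.82, 156.15, 167.57 and 126.53. The mean was 231 ± 19.1 against 142 ± 23.3, from 1107 and 418 reads, and the lowest control lay well above the highest paused value. A weaker peak at the 3′ end of the gene had 41.6 ± 9.16 and 32.8 ± 6.93, and its groups overlapped.

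Aim2, whose product senses DNA in the cytosol, had control values of 128.60, 150.49, 160.86 and 155.77 and paused values of 114.20, 107.25, 100.85 and 101.93 at a peak 786 bp from its start. Its ratio was 0.712. A second peak of the gene, 575 bp from the start, had 88.7 ± 10.9 and 88.3 ± 8.40, so that of the 2 peaks at this start only the stronger was lower.

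Sgk1 encodes a kinase activated by mTOR complex 2, and its peak lay 60 bp from a start. The control values were 123.07, 132.57, 123.61 and 141.07, and the paused values 113.05, 78.86, 102.41 and 119.50. The groups were apart by a small margin, with a ratio of 0.795 near the threshold of the rule. Peaks at its 3′ end had 64.9 ± 12.2 against 74.2 ± 11.7 and 51.4 ± 14.2 against 46.7 ± 13.8.

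The other 5 of the 8 strongest were the peaks of Zfp385a, Rps15a, Mab21l4, Hnrnpa3 and Nacad. Mab21l4 had 148 ± 36.1 in control and 87.2 ± 10.9 in paused samples, and Zfp385a, a zinc finger gene, 150 ± 24.6 and 103 ± 20.1. Nacad had 122 ± 19.1 and 89.9 ± 11.99. Of the 8, those of Rps15a and Hnrnpa3 stood at a 3′ end and the other 6 at a start.

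Translation genes are a main output of mTOR. Of 66 gene-end peaks of cytosolic ribosomal protein genes, 4 were lost peaks, among them those of Rpl15, Rpl41 and Rps15a (6.06%, against 1.87% of all tested gene-end peaks). limma-trend called 3 of the 66 lower and 4 higher, where it called 1.28% and 10.5% of all gene-end peaks so, and the median log2 change was 0.14. The Rps15a peak, 906 bp past its 3′ end, had control values of 131.71, 139.74, 138.85 and 158.71 and paused values of 104.97, 99.37, 110.16 and 93.73. The mean was 142 ± 11.5 against 102 ± 7.09, with the groups apart as the rule requires. The peak at the start of Rps15a had 143 ± 25.5 and 158 ± 4.13.

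The Rpl15 peak, 631 bp past its 3′ end, had a mean of 48.0 ± 5.67 in control and 32.1 ± 8.90 in paused samples, with 40.45 as the lowest control and 40.34 as the highest paused value. The weak peak 778 bp from the start of Rpl41 had 17.2 ± 1.84 and 11.7 ± 2.95. Split by side after the values had been seen, the 12 peaks at 3′ ends of ribosomal protein genes had a median log2 change of -0.25, with 3 called lower (25.0%; the lost peaks of Rpl15 and Rps15a, and Rpl13a), where the 3083 peaks at all 3′ ends had 0.02 and 3.08%. The Rpl15 call was lost in DESeq2 on all 8 samples, with a log2 change of -0.69. It was also lost without control replicate 2, 3 or 4 or paused replicate 1 or 4, with log2 changes of -0.60 to -0.42. The 37 peaks at their starts had a median of 0.17.

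Other lists of translation genes held at most 1 lost peak each, to be read against the 1.87% of all tested gene-end peaks. Among 77 peaks of translation factor genes it was that of Eif4b, whose product helps the helicase of the cap-binding complex and is a target of S6 kinase, with 24.3 ± 2.24 in control and 15.2 ± 4.88 in paused samples. The start peak of Eif4b had 257 ± 44.3 and 284 ± 29.3. Among 78 peaks of mitochondrial ribosomal protein genes it was that of Mrpl43, with 22.8 ± 2.66 and 11.3 ± 5.45. Polr1d, a subunit shared by RNA polymerases I and III, had 28.3 ± 8.08 and 18.8 ± 1.66. Its peak was the 1 lost among 26 of polymerase III machinery genes (3.85%). There were 0 lost peaks among 37 of tRNA synthetase and 85 of respiratory chain genes, and nothing is read from these counts at that share.

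The amino acid stress list, targets of Atf4, held 2 lost peaks among 30 (6.67%, against 1.87% of all), those of Chac1 and Psat1. Chac1 encodes an enzyme that breaks down glutathione. Its peak, 449 bp past the 3′ end, had control values of 15.56, 15.53, 11.85 and 23.51 and paused values of 0.00, 6.31, 10.86 and 4.69. Paused replicate 1 held no read there, which allows up to 3 reads or a value of 3.46, counting error only. The start peak of Chac1 had 263 ± 31.3 and 285 ± 29.9.

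Psat1 encodes an enzyme of serine synthesis. The peak 852 bp past its 3′ end had control values of 15.56, 22.69, 11.85 and 19.10 and paused values of 6.92, 6.31, 4.65 and 9.37, while its start peak had 336 ± 21.0 and 336 ± 31.4. Both genes thus had a weak 3′ peak that was lower and a strong start peak with overlapping groups. In the split made after the values had been seen, the 10 peaks at 3′ ends in this list had a median log2 change of -0.30, with 2 called lower, both of them lost peaks, against 0.02 and 3.08% for all 3′ ends; the 16 at starts had a median of 0.09. Without control replicate 4 neither was called, with log2 changes of -1.69 and -1.17, nor was Psat1 without control replicate 2 (-1.09); after a loess correction for peak strength neither was called, with -1.56 and -1.01.

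Glucose uptake and glycolysis genes held 2 lost peaks among 28 (7.14%, against 1.87% of all), those of Pgam1 and Ldha. Ldha encodes the muscle-type subunit of lactate dehydrogenase, and its peak at chr7:46855827-46856027, 300 bp from the 3′ end, had control values of 68.45, 69.27, 64.34 and 73.47 and paused values of 36.91, 45.74, 54.31 and 43.35. The controls lay close together, and above every paused library as the rule requires. A weak peak near the start of Ldha was also called lower, with 21.1 ± 7.51 and 10.2 ± 3.99; apart from peaks that met the rule, it was the single one called lower among the other gene-end peaks of genes with a lost peak.

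Pgam1, phosphoglycerate mutase, had 47.3 ± 5.52 in control and 28.9 ± 6.74 in paused samples at a peak 964 bp past its 3′ end, and 176 ± 21.1 and 213 ± 16.8 at its start. A 3′ peak of Hk2, the hexokinase gene, was called lower too (20.02 ± 6.80 and 10.1 ± 5.96), but its groups overlapped. In the same split, the 9 peaks at 3′ ends of this list had a median log2 change of -0.31, with 3 called lower, 2 of them lost peaks, and 1 higher, against 0.02 and 3.08% for all 3′ ends; the 17 at starts had a median of 0.14. The 3′ ends of some other lists lay on the other side. Medians were 0.43 over 6 peaks of pluripotency and 0.16 over 4 of imprinted genes. They were 0.12 over 17 of cell cycle and 0.11 over 13 of chromatin regulator genes. Further lists had negative medians at their 3′ ends too. Examples were -0.26 over 5 peaks of Nodal and Smad pathway and -0.24 over 8 of tRNA synthetase genes. Those of proteasome and respiratory chain genes were -0.24 over 7 and -0.13 over 18. Lower 3′ ends were thus not particular to the lists described above.

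Of the mTOR pathway list, 1 of 57 peaks was lost (1.75%, against 1.87% of all tested gene-end peaks), that of Ddit4. Its product REDD1 restrains mTOR complex 1 under stress. The peak, 805 bp past the 3′ end, had control values of 16.25, 22.69, 25.40 and 24.98 and paused values of 11.54, 7.89, 12.41 and 9.37. The groups were apart, as the rule requires, while at its start the means were 313 ± 15.5 and 348 ± 54.6. Phlpp2, which encodes a phosphatase of the kinase Akt, had 2 lost peaks near its 3′ end, 404 and 715 bp from it, with 29.6 ± 4.02 against 19.9 ± 4.49 and 39.2 ± 11.1 against 17.6 ± 7.39. Ccdc188 was the other gene with 2, one on each side: 53.1 ± 8.02 against 30.5 ± 3.49 at the start and 40.1 ± 5.69 against 25.3 ± 4.09 at the 3′ end.

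Single lost peaks stood at other genes of growth and signalling. Ccnd1, the gene of cyclin D1, which drives entry into S phase, had control values of 30.42, 31.05, 23.71 and 24.98. Its paused values were 18.46, 9.46, 15.52 and 18.75. It held the 1 lost peak among 64 of cell cycle genes (1.56%, against 1.87% of all tested gene-end peaks). Furin, a protease that matures Nodal and related ligands, had 21.4 ± 5.68 and 12.7 ± 0.921 at its 3′ end. Chd1, a chromatin remodeller of embryonic stem cells, had 16.6 ± 5.83 and 7.79 ± 2.84. There were 0 lost peaks among 25 of pluripotency, 53 of lysosome and autophagy, 29 of germline and 31 of imprinted genes. Since only 1.87% of all tested gene-end peaks were lost, nothing is read from a count of 0 in lists of this size.

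Solute carrier genes, which encode membrane transporters, held 5 lost peaks among 324, close to the share of all gene-end peaks (1.54% against 1.87%). Slc9a9, an endosomal sodium and proton exchanger, had the strongest, with control values of 98.18, 76.44, 104.98 and 119.03 and paused values of 51.91, 52.05, 57.41 and 38.66, 920 bp from its start. Slc13a3, a carrier of dicarboxylates, had 39.4 ± 14.3 and 18.8 ± 3.11, and Slc25a47, a mitochondrial carrier, 17.7 ± 5.46 and 6.81 ± 1.68. Both were apart in all samples, as the rule requires.

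Lists of genes used in differentiated cells held lost peaks in small numbers, at shares on both sides of the 1.87% of all gene-end peaks. Hox genes held 2 of 43 (4.65%), with the Hoxb13 peak at 82.8 ± 4.32 and 62.0 ± 8.29 beside that of Hoxb1. Keratin genes held 2 of 42 (4.76%), Krt16 (19.6 ± 5.47 and 7.5 ± 1.49) and Krtap26-1 (17.5 ± 4.34 and 8.47 ± 2.89), which encode proteins of epithelium and hair. Vmn1r212 was the only 1 of 59 peaks of olfactory and vomeronasal receptor genes (1.69%). Zinc finger genes named Zfp, which are used in many cell types, held 4 of 379 (1.06%). Psmb11, the proteasome subunit of the thymic cortex, had 53.1 ± 11.2 and 36.3 ± 2.78.

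Members whose promoter stretches are printed above include 2 genes of the epidermis. Sprr1a, a component of the cornified envelope, had control values of 33.53, 38.22, 35.56 and 38.21 and paused values of 31.15, 9.46, 12.41 and 26.95. Its controls lay close together, while paused replicates 1 and 4 were near them and replicates 2 and 3 far below. Trpv3, a heat-gated ion channel of keratinocytes, had 28.35, 33.44, 32.17 and 35.27 in control and 16.15, 9.46, 21.72 and 15.23 in paused samples.

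Arhgef10l, which encodes a guanine nucleotide exchange factor, had the clearest separation of the 4, with control values of 41.14, 41.80, 42.33 and 51.43 and paused values of 21.92, 14.20, 21.72 and 17.57. Dhrs9, a dehydrogenase gene, had 25.9 ± 5.46 and 15.4 ± 2.02. Arhgef10l also had a peak at its 3′ end, which went the other way, from 29.5 ± 4.11 to 39.7 ± 7.91, with overlapping groups not called different.

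The following genes were picked from the 293 after their values had been seen, to show what else the lost peaks stand near. A few encode proteins that bind or process RNA. Hnrnpa3, an RNA-binding protein of the nucleus, had 117.54, 115.85, 160.86 and 164.58 in control and 88.82, 100.95, 88.44 and 82.01 in paused samples at a 3′ peak, and 346 ± 60.2 and 417 ± 37.2 at its start. Wbp11, a splicing factor, had a 3′ peak of 24.6 ± 2.24 and 13.3 ± 0.784, and Serbp1, an mRNA-binding protein, one of 23.6 ± 3.25 and 13.9 ± 2.48. Their start peaks had 370 ± 50.1 and 432 ± 42.0, and 469 ± 47.4 and 545 ± 84.8.

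Nme2, a nucleoside diphosphate kinase, had control values of 74.32, 70.47, 64.34 and 69.07 and paused values of 46.14, 42.59, 38.79 and 56.24 at its 3′ end. The start peak, at 390 ± 43.8 and 396 ± 59.7, did not share the gap. Srf, which encodes the serum response factor, had 88.7 ± 16.7 and 59.2 ± 5.72 near its 3′ end, and Atrn, a gene for a transmembrane protein of pigmentation, 39.995 ± 4.20 and 16.9 ± 6.01. Among genes of the Wnt pathway, the lost peaks of the ligand Wnt6, the secreted inhibitor Notum and the receptor Kremen1 had ratios of 0.429, 0.612 and 0.444.

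Immune genes included Ncf1, a subunit of the phagocyte oxidase, with 25.5 ± 4.88 and 11.01 ± 4.06 near its start, and the lymphocyte genes Cd79a (17.3 ± 3.07 and 9.34 ± 3.29), Cd52 (27.2 ± 4.47 and 15.4 ± 4.13) and Lat (48.3 ± 8.93 and 37.3 ± 1.28). Hmox1, the heme oxygenase gene induced by oxidative stress, had control values of 15.90, 21.50, 28.79 and 35.27 and paused values of 13.84, 6.31, 10.86 and 11.72. In control its values ranged widely, and the deepest library had the lowest of them.

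The set grew under each other scaling tried. All 293 lost peaks met the rule again with TMM, total-read and DESeq2 scaling, which added others to give 489, 631 and 515 peaks. These scalings lowered paused values relative to control. The median log2 change over all tested peaks was 0.001, -0.05 and -0.006 with them, against 0.101. Such a shift by itself favours keeping lower peaks and adding others, so this is no independent check. After a loess correction for peak strength 476 peaks met it, 241 of them lost peaks under the deposited scaling (82.3% of the 293). These 241 met the rule under all 5 scalings.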

How the data were processed

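ATAC-seq libraries of 4 control and 4 paused samples were grouped by the sample titles. Build mm10, FastQC, Trim Galore, Bowtie2 2.4.1, MACS3 3.0.3 and DiffBind 3.16.0 are named, per the submitters' processing notes, without role or order. The authors deposited a signal per sample over 1 common set of peaks: 100% of them were whole multiples of the value of 1 read (tolerance 0.01 in value), so that whole reads could be recovered. How the factors were made is not given in the sources used here. The authors also deposited log2 concentrations and a log2 fold, and the p-values and FDR of their comparison, per the file headers; a sentence that uses them names the authors' deposited table. Of the columns with sample values, 0 were not used.

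The test across all peaks was limma-trend (limma 3.58.1, R 4.3.3) on log2(value + 1) over 127402 peaks with a mean of at least 10, with no covariate and Benjamini-Hochberg adjustment over all of them. Raw counts had been allowed for, in which case edgeR would have been the test. Alternatives were edgeR 4.0.16 and DESeq2 1.42.0 on recovered reads (edgeR with TMM called 7058 lower and 9084 higher), other scalings, filters, a pseudocount of 0.1, a replicate block and each sample left out. The fits were tested on simulated data. Gene spans, promoters and sequences came from RefSeq tables of GRCm38.p6; 17492 of 21900 protein-coding genes had a start site there, and the side was known for 228 of the 293 peaks. Distances are to the nearest gene end; exons, introns and UTRs were not analysed here.

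The members, gene lists and motifs were chosen with earlier results of these data known. Peaks were named by rule: the 12 lowest ratios, the 8 strongest, up to 3 per gene list by lowest ratio, members sharing a gene, and 2 on each side of the ratio and strength thresholds. Further members, named as such in the text or with their printed sequence, were picked after their values were seen. The values of 1 peak are not reported here. PCR copies are not independent molecules, so a value at 0 reads, which allows up to 3 reads, covers counting error only. Values are means ± SD over 4 samples.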

Additional observations from a re-analysis of the deposited data

Results flagged for a closer look

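Among 98 groups of 4 values, those of the named peaks, 3 had 1 sample far from the other 3 by Dixon's test; chance flags about 1 in 20 groups. Control replicate 4 stood at 41.15 for the start peak of Ccdc188, where the other controls lay between 55.88 and 58.52. Paused replicate 2 stood at 70.98 for the peak of Mab21l4, where the other paused samples lay between 91.13 and 93.73. Control replicate 3 stood at 110.06 for the peak of Ms4a4d, where the other controls lay between 81.24 and 84.80. The samples differed from peak to peak, and each of the 3 peaks met the rule with that sample included.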

How the results depend on the processing

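The number of peaks called lower moved with the test and scaling. Over all tested peaks it was 3702, and 7058 in edgeR with TMM, 1892 in DESeq2, 751 with a mean of at least 50 (fewer peaks tested) and 6827 with equal total reads. Over gene-end peaks it was 200, and 414, 103, 52 and 401 in the same order, 301 after TMM rescaling and 316 after loess correction. Of the 293 lost peaks 153 were called, and 87 in DESeq2 and 34 with a mean of at least 50. Leaving out 1 sample gave 2314 to 3871, 124 to 206 and 97 to 136 calls; control replicates 1, 3 and 4 each moved all 3 counts by over 1.5 times (members called: 100, 101 and 97 without them). The number of peaks meeting the rule was 293, and 489 with TMM rescaling, 631 with equal totals, 515 with DESeq2 size factors, 476 after loess correction, 141 within 500 bp, 617 within 2 kb, 164 with a mean of at least 20, 48 with a mean of at least 50 and 357 to 469 with 1 sample left out (469 without paused replicate 3). The median log2 change of -0.70 became -0.80 in edgeR with TMM and after TMM rescaling, and -0.85 with equal totals. For DESeq2 the cause was not tested. Of 880 values of 51 named peaks under 18 other settings, 0 reversed, 776 stayed on their side of the threshold, 75 were no longer past it and 29 were newly past it.

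With the replicate number as a block, 4623 of all tested, 254 of the gene-end and 163 of the lost peaks were called lower. Deviations of samples with the same number correlated at 0.04 to 0.13 across peaks, and those of samples with different numbers at -0.105 to 0.07. Whether samples with the same number share a batch is not given in the labels and was not tested. The depth limits single peaks: 97 to 150 lost peaks held 10 or fewer reads in each paused sample.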

Other observations

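On the X chromosome, which the rule leaves out, 2 of 504 tested gene-end peaks met the rest of it. On chromosomes 1 to 19 it was 293 of 15662 (1.87%), and nothing is read from a count of 2. The peak 733 bp from an end of Pgk1, the gene of the glycolytic enzyme phosphoglycerate kinase, had control values of 15.90, 19.11, 15.24 and 16.16 and paused values of 3.46, 7.89, 6.21 and 8.20, a mean of 16.6 ± 1.72 against 6.44 ± 2.17 (SD, n = 4). The peak 971 bp from an end of Taf9b, which encodes a subunit of the general transcription factor TFIID, had 31.4 ± 7.07 and 12.7 ± 3.30. Of the peaks over 1 kb from any gene end, 4906 met the rest of the rule. Their share of all such peaks was not worked out, so this count is not compared with that at gene ends.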
